A study of Mus musculus with 18 samples.

Results

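Glutamate is the main excitatory transmitter of the retina, and 6 genes of its handling were followed here among the 35006 gene names counted in each retinal library. They were chosen by name, with earlier results of these data known. Their entries in the count files have the symbols Slc1a2, Slc1a7, Slc17a7, Slc17a8, Glud1 and Slc38a1. All 6 were present in the files and all 6 passed the filter on low counts. Poly(A) RNA of retinas from male mice was sequenced in 18 libraries. WT mice were C57BL/6J and gave 3 libraries. Akita mice (C57BL/6-Ins2Akita/J) carry a heterozygous mutation of the insulin gene Ins2 that makes them diabetic, and they gave 4 libraries. NACET is the ethyl ester of N-acetylcysteine, an antioxidant precursor of cysteine. Mice drank it with their water (0.33 mg/mL) between weeks 4 and 24 of age, which came to 50 mg/kg each day. Treated were WT mice (WT + NACET, 6 libraries) and Akita mice (Akita + NACET, 5 libraries), while the other groups drank water. The mutation is carried throughout the body, and the whole retina was extracted, so that the levels are averages over its cell types. In such samples fewer cells of a type and less RNA per cell cannot be told apart.

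Photoreceptors and bipolar cells release glutamate continuously, and the transmitter is cleared by transporters of the SLC1 family on neurons and on Müller glia. Before release it is packed into synaptic vesicles by the vesicular transporters of the SLC17 family. Inside cells it is made from glutamine or burned in mitochondria, and glutamine itself is passed between cells by carriers of the SLC38 family. Of the genes followed, Slc1a2 (EAAT2, also GLT-1) and Slc1a7 (EAAT5) encode uptake transporters of the plasma membrane. Slc17a7 (VGLUT1) and Slc17a8 (VGLUT3) encode vesicular transporters. Glud1 encodes glutamate dehydrogenase, which interconverts glutamate and 2-oxoglutarate, and Slc38a1 (SNAT1) encodes a sodium-coupled carrier of glutamine.

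The genes lie on 6 chromosomes of the mouse genome build mm9. Slc1a2 (ENSMUSG00000005089.8) spans chr2:102498816-102630941 on the plus strand, where the antisense transcript Gm13872 shares 189 of its 13153 exonic bases. Reads were counted without regard to strand, so reads of the shared stretch cannot be assigned to either by strand. Slc1a7 (ENSMUSG00000008932.7) spans chr4:107640784-107686137 and Slc17a7 (ENSMUSG00000070570.4) chr7:52419291-52431508, both on the plus strand. Slc17a8 (ENSMUSG00000019935.9) spans chr10:89036765-89083998 and Slc38a1 (ENSMUSG00000023169.8) chr15:96401849-96473344, both on the minus strand. Glud1 (ENSMUSG00000021794.9) spans chr14:35123913-35158330 on the plus strand. A stretch of 1148 bases aligned to its transcript with 97.2% identity at chr7:132218866-132220011, and a second of 287 bases with 97.6% identity at chr3:120723410-120723694. Reads that fit such a copy as well as Glud1 were not counted, so the level of Glud1 may be too low. No copy of over 90% identity was found for the other 5 transcripts.

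The sequence before the start is shown for Slc17a7 and Slc17a8, since the levels of these paralogs moved in opposite directions in Akita retina, and for Slc1a7, which moved with Slc17a7. The bases come from the RefSeq promoter table of build GRCm38.p6, which held an entry for 5 of the 6 genes, and were placed on mm9 by an exact match that was unique. Capitals mark TAATC, the core letters recognised by the photoreceptor homeodomain factors CRX and OTX2, and TGACNNNGC, the core of the antioxidant response element bound by NRF2. Both strands were searched, and the patterns did not overlap. Each line runs 5′ to 3′ along the strand of its gene and shows only bases before the annotated gene, except that the short stretch of Slc1a7 lies within the first exon of its GENCODE model.
Slc17a7, chr7:52419041-52419290, plus strand: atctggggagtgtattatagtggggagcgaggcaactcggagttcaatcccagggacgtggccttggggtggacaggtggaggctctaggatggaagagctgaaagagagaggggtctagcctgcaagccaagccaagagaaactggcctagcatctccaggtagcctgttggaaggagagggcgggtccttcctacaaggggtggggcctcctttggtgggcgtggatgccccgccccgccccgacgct
Slc17a8, chr10:89083999-89084244, minus strand: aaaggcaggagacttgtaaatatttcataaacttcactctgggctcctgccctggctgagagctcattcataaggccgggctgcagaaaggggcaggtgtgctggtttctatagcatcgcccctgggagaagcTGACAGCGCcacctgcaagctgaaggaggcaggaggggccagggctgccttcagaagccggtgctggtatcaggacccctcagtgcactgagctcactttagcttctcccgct
Slc1a7, chr4:107640968-107640996, plus strand: tttcccaggcccTAATCtgctcctagctc

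Slc17a7 held neither pattern in its 250 bases. Slc17a8 held 1 TGACNNNGC, which began 117 bases before the RefSeq start, and Slc1a7 held 1 TAATC, 31 bases before its RefSeq start. Among 32851 promoter windows of 250 bases, 19.8% held TAATC and 10.2% held TGACNNNGC, so that either match is common and describes the letters only. The window of Slc17a7 was 61.2% G and C, that of Glud1 82.0%, and the median over all windows was 52.4%.

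Between 11495596 and 17814480 reads fell in genes per library after ribosomal RNA genes were left out. Levels are given with SD as CPM, counts scaled to the size of the library, after TMM normalization. The libraries of a group differed from each other by more than counting error in every pair, and Akita replicate 4 and WT + NACET replicate 5 stood farthest from their groups. A chi-square per degree of freedom of 50.7 was found between Akita replicates 3 and 4 and of 48.6 between WT + NACET replicates 4 and 5, against 4.54 in the closest pair of all. Calls among the 6 genes that rest on these libraries are therefore given with and without them. The TMM factor of Akita replicate 4 was 0.803, the lowest of the 18 libraries, which raises all its CPM values. 4 rod markers (Gnat1, Pde6a, Nrl and Sag) were present in every library and together made up 18605 to 42295 CPM in this retinal tissue. The summed level of 4 lens markers ranged from 0.379 CPM to 11147 CPM across libraries. Its highest value was 7.43 CPM in WT, 11147 in WT + NACET, 926 in Akita and 482 in Akita + NACET. The group medians ran from 2.14 to 15.3 CPM. The labels do not say that each library came from a separate mouse, and the p-values then measure only the spread between these libraries, which may be technical.

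Compared per kilobase of exon, Slc17a7, the vesicular transporter of photoreceptor and bipolar terminals, stood first, at 78.2 ± 18.1 CPM per kb over the 18 libraries. Slc1a7 followed with 29.9 ± 7.13 CPM per kb and Glud1 with 22.2 ± 1.60. Slc1a2 (16.1 ± 3.08 CPM per kb) and Slc38a1 (13.6 ± 2.49) differed by less than the SD of Slc1a2, though not by less than that of Slc38a1. Slc17a8, known from a small class of amacrine cells, came last with 0.640 ± 0.194 CPM per kb, and only 22 to 67 reads supported it in a library, against 943 to 4831 for the other genes. The lengths join the exons of all annotated transcripts, which lowers the value of genes with long alternative exons, such as Slc1a2.

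**Figure D1:**
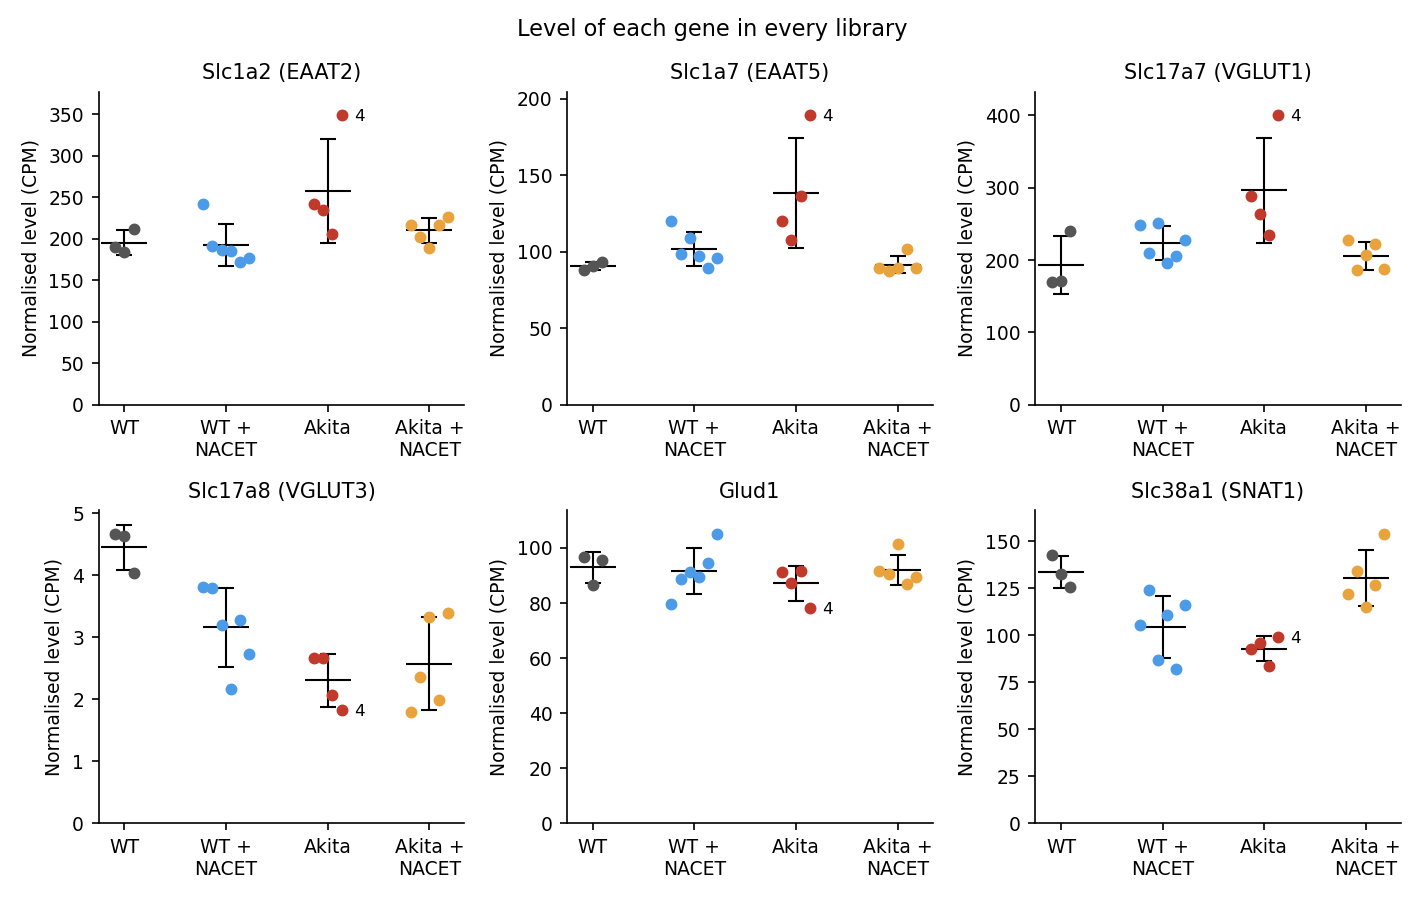
Normalised level in CPM (y axis, from 0) of the 6 genes in each library (points) of the 4 groups, with the group mean and SD (black), the point of Akita replicate 4 carrying its number. Slc1a7, Slc17a7 and Slc1a2 were highest in Akita replicate 4 (189, 400.4 and 349 CPM). By group mean, Slc17a8 was highest in WT and Slc38a1 was lowest in Akita.

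Diabetes was addressed by comparing Akita with WT. In this comparison 4 of the 6 genes passed the test (adjusted p of at most 0.05 in edgeR), against a background of 7.64% of the 16183 genes tested. Because the 6 were chosen with earlier results known, a count above the background, here and below, cannot show that they respond more than other genes. The uptake transporter Slc1a7 and the vesicular transporter Slc17a7 were higher in Akita retina, while the vesicular transporter Slc17a8 and the glutamine carrier Slc38a1 were lower. Slc1a2 and Glud1 did not pass. The median log2 fold change of the 6 was 0.15, beside -0.01 over all genes tested, with 3 of the 6 positive. For 3 genes (Slc1a7, Slc17a8 and Slc38a1) the Akita and WT libraries did not overlap, which was the case for 23.2% of the genes tested.

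Among the uptake transporters, Slc1a7 measured 88.2, 90.3 and 93.0 CPM in the WT libraries and 120.1, 107.9, 136.3 and 189.2 CPM in the Akita libraries. Every Akita library lay above every WT library, and replicate 4 stood far above the others. The log2 fold change was 0.61 ± 0.14 (SE, adjusted p = 0.0178). Slc1a2 measured 190.1, 183.9 and 212.3 CPM in WT and 241.7, 235.2, 205.6 and 349.0 CPM in Akita, where replicate 3 fell inside the WT range. Its log2 fold change of 0.40 ± 0.14 did not pass (adjusted p = 0.0821). DESeq2 fitted to all groups called Slc1a2 (0.42, adjusted p = 0.0437) besides the 4 genes called in edgeR, and DESeq2 fitted to Akita and WT alone did not (adjusted p = 0.127).

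The vesicular transporters went opposite ways. Slc17a7 measured 169.9, 170.5 and 239.8 CPM in WT and 288.1, 263.7, 234.3 and 400.4 CPM in Akita, so that WT replicate 3 and Akita replicate 3 overlapped. Its log2 fold change was 0.62 ± 0.16 (adjusted p = 0.0270). Slc17a8 fell from 4.67, 4.64 and 4.03 CPM in WT to 2.67, 2.66, 2.07 and 1.82 CPM in Akita, with no overlap. That change, -0.94 ± 0.24 on the log2 scale (adjusted p = 0.0283), was the largest of the 6, on the fewest reads.

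On the metabolic side, Slc38a1 fell from 142.9, 132.5 and 125.7 CPM in WT to 92.8, 95.8, 83.5 and 99.3 CPM in Akita, again with no overlap. The log2 fold change was -0.53 ± 0.12 (adjusted p = 0.0214). Replicate 4 was the highest Akita library here too, next to replicate 2 at 95.8 CPM. Glud1 measured 96.6, 86.6 and 95.6 CPM in WT and 91.5, 87.4, 91.6 and 78.2 CPM in Akita. Its log2 fold change of -0.09, with a 95% interval from -0.28 to 0.09, did not pass (adjusted p = 0.532).

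These calls rested on few libraries. Without Akita replicate 4, the log2 fold change of Slc1a7 was 0.42 (adjusted p = 0.0466) and that of Slc38a1 -0.56 (adjusted p = 0.0466), while Slc17a7 (0.44, adjusted p = 0.0812) and Slc17a8 (-0.85, adjusted p = 0.0842) no longer passed. Slc17a8 also missed the threshold without Akita replicate 3 (adjusted p = 0.0519), and Slc1a2 passed without it (0.49, adjusted p = 0.0417). Without WT replicate 1 none of the 4 genes passed (adjusted p from 0.109 to 0.148), and the same was found without WT replicate 2 (0.0815 to 0.122). In each of these last fits no gene at all was called, and every sign among the 6 genes was unchanged.

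Whether NACET changed diabetic retina was asked by comparing Akita + NACET with Akita. Slc1a7 and Slc17a7 were lower and Slc38a1 was higher in the treated mice, so that 3 of the 6 genes passed, against a background of 9.65%. These 3 were also the genes whose libraries did not overlap between the groups, as did 14.1% of the genes tested. The comparison uses the same 4 Akita libraries as the previous one, and opposite signs in the 2 comparisons are therefore no independent evidence of each other. The median log2 fold change of the 6 was -0.11, beside -0.00 over all genes tested.

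Slc1a7 measured 89.5, 87.4, 89.4, 101.4 and 89.2 CPM in Akita + NACET, each below the lowest Akita library (107.9 CPM). The log2 fold change was -0.60 ± 0.12 (adjusted p = 0.0161). For Slc1a2 the treated libraries read 216.2, 202.3, 188.4, 217.1 and 225.8 CPM and 3 of them exceeded the lowest Akita library. Its change of -0.30 ± 0.12 did not pass (adjusted p = 0.12).

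Slc17a7 measured 228.1, 185.7, 206.6, 222.1 and 187.2 CPM in Akita + NACET, all below the lowest Akita value of 234.3 CPM. The log2 fold change was -0.53 ± 0.14 (adjusted p = 0.0258). Slc17a8, at 1.79, 2.36, 3.32, 1.99 and 3.40 CPM, spread across and beyond the Akita range, and its change of 0.15 had a 95% interval from -0.31 to 0.61 (adjusted p = 0.686). Of the genes that passed in Akita vs WT it was the one that did not pass here.

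Slc38a1 measured 121.8, 134.2, 115.2, 126.6 and 154.1 CPM in Akita + NACET, all above the highest Akita library (99.3 CPM). The log2 fold change was 0.49 ± 0.11 (adjusted p = 0.0204). Glud1, at 91.7, 90.5, 101.3, 86.8 and 89.5 CPM, overlapped Akita and changed by 0.08 ± 0.08 (adjusted p = 0.546).

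Leaving out Akita replicate 4 ended all 3 calls, the nearest with an adjusted p of 0.0567 for both Slc1a7 (-0.41) and Slc38a1 (0.52) and with 0.0989 for Slc17a7 (-0.35). Only 1 gene of all tested was called in that fit. Slc17a7 also lost its call without Akita + NACET replicate 2 (adjusted p = 0.0650) or replicate 5 (0.0723), and Slc38a1 without replicate 5 (0.0573).

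**Figure D2:**
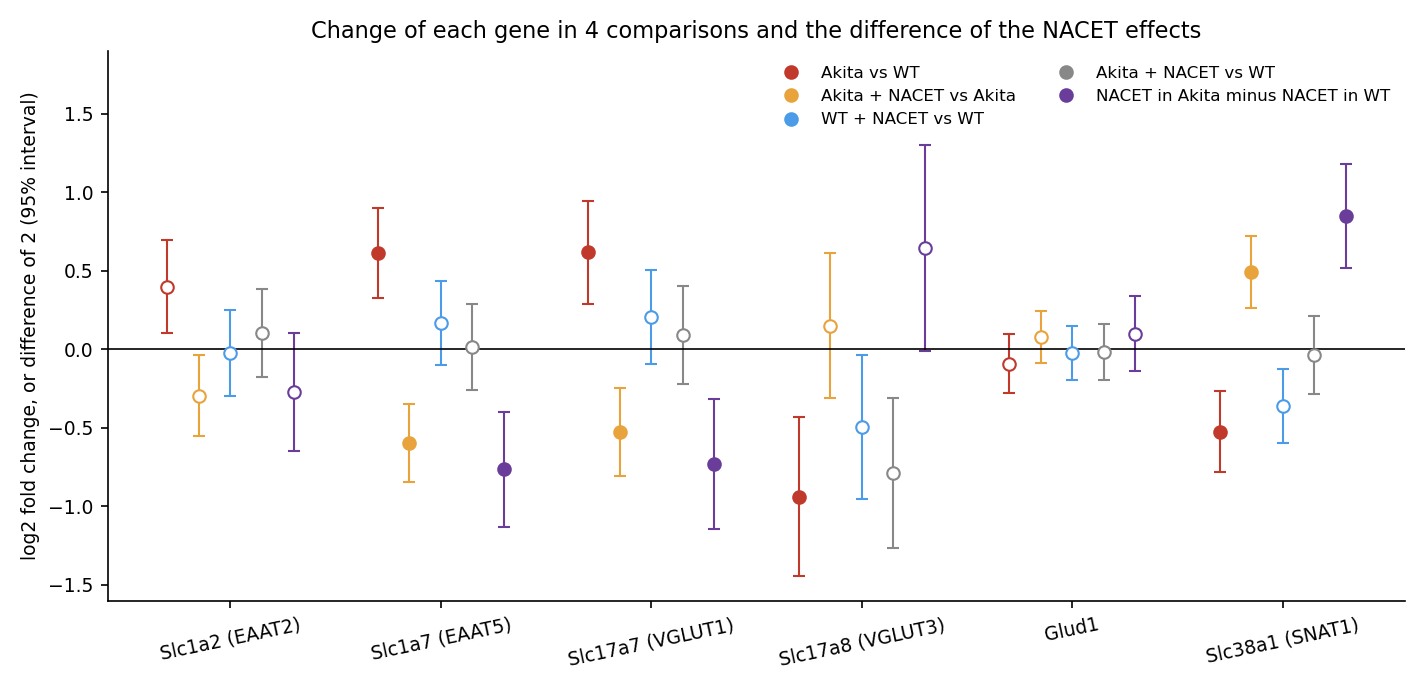
Log2 fold change (y axis) with its 95% interval for each of the 6 genes in 4 comparisons, and the difference between the NACET effects in Akita and in WT (purple). Filled points passed an adjusted p of 0.05 over all genes tested. Slc1a7 and Slc17a7 were positive in Akita vs WT (0.61 and 0.62) and negative in Akita + NACET vs Akita (-0.60 and -0.53), Slc38a1 showed the opposite signs (-0.53 and 0.49), and all points of Glud1 lay near 0.

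In WT mice NACET changed none of the 6 genes past the threshold, against a background of 1.48% called. Over the 6 WT + NACET libraries Slc1a7 ranged from 89.3 to 119.7 CPM (median 97.7) and Slc17a7 from 195.8 to 251.2 CPM (median 218.5), which overlapped WT. Their log2 fold changes were 0.17 ± 0.13 (adjusted p = 0.477) and 0.21 ± 0.14 (adjusted p = 0.441). Slc38a1 ranged from 82.1 to 123.9 CPM (median 108.0) and lay below all WT libraries, with a change of -0.36 ± 0.11 that missed the threshold (adjusted p = 0.104).

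Slc17a8, from 2.16 to 3.81 CPM (median 3.23), also stood below every WT library and changed by -0.49 ± 0.22 (adjusted p = 0.225). The libraries of 11.5% of all genes did not overlap in this comparison, as for these 2 genes of the 6. Slc1a2 (172.6 to 241.9 CPM, median 185.5) and Glud1 (79.7 to 105.2 CPM, median 90.3) changed by -0.02 each, with adjusted p of 0.937 and 0.904. DESeq2 also called 0 of the 6, and without adjustment Slc38a1 and Slc17a8, 2 of the 6, had a p under 0.05 in edgeR, as did 3162 of all genes tested.

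The effect of NACET differed between diabetic and WT retina for 3 of the 6 genes, by a direct test of the difference, where 20.3% of all genes passed. The NACET effect on Slc38a1 was 0.85 ± 0.16 higher on the log2 scale in Akita than in WT (adjusted p = 0.00268). For Slc1a7 it was lower by -0.76 ± 0.18 (adjusted p = 0.00757) and for Slc17a7 by -0.73 ± 0.20 (adjusted p = 0.0167). Slc17a8 (0.64 ± 0.31, adjusted p = 0.146), Slc1a2 (-0.27 ± 0.18, adjusted p = 0.290) and Glud1 (0.10 ± 0.11, adjusted p = 0.557) did not pass. All 3 differences passed without WT + NACET replicate 5 and without Akita replicate 4 (Slc38a1 0.88, Slc1a7 -0.58, Slc17a7 -0.55), while Slc17a7 missed the threshold without WT replicate 1 (adjusted p = 0.0595) or WT replicate 2 (0.0590).

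Treated diabetic mice were also set beside untreated WT mice. None of the 6 genes passed, nor did more than 1 gene in all (0.00618% of those tested, with 750 at an unadjusted p under 0.05). Slc1a7 differed by 0.01, Slc38a1 by -0.04 and Slc17a7 by 0.09 on the log2 scale, with 95% intervals from -0.26 to 0.29, from -0.28 to 0.21 and from -0.22 to 0.40. DESeq2 called 0 of the 6 as well, and 1 had an unadjusted p under 0.05 in edgeR. This was Slc17a8, at 2.57 ± 0.747 CPM against 4.45 ± 0.357 CPM, a log2 difference of -0.79 ± 0.23 (adjusted p = 0.827) between libraries that did not overlap, as for 4.17% of all genes in this comparison. Under NACET, Akita differed from WT in 1 of the 6 genes, against 13.3% of all genes. This was Slc38a1, at 130.4 ± 14.9 CPM in Akita + NACET and 104.2 ± 16.5 CPM in WT + NACET, with overlapping libraries and a log2 fold change of 0.32 ± 0.10 (adjusted p = 0.0350). The call was lost without WT + NACET replicate 3 or 5 (adjusted p of 0.0871 and 0.0856) and without Akita + NACET replicate 2, 4 or 5 (0.0712, 0.0582 and 0.123).

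Put in order of their group means, Slc1a2, Slc1a7 and Slc17a7 were each highest in Akita, and Slc17a8, Glud1 and Slc38a1 each lowest there. For Slc1a7 the order was Akita (138.4 ± 35.8 CPM), WT + NACET (101.6 ± 10.9), Akita + NACET (91.4 ± 5.67) and WT (90.5 ± 2.40). For Slc17a7 it was the same, with 296.6 ± 72.6, 223.1 ± 23.4, 205.9 ± 19.5 and 193.4 ± 40.2 CPM. Neighbours in both orders overlapped in range. Without replicate 4 the Akita mean was 121.4 ± 14.3 CPM for Slc1a7 and 262.0 ± 26.9 CPM for Slc17a7 (n = 3), still the highest of the 4.

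Slc38a1 ran from WT (133.7 ± 8.67 CPM) over Akita + NACET (130.4 ± 14.9) and WT + NACET (104.2 ± 16.5) to Akita (92.9 ± 6.78), and each neighbouring pair overlapped. Slc17a8 ran from WT (4.45 ± 0.357 CPM) over WT + NACET (3.16 ± 0.635) and Akita + NACET (2.57 ± 0.747) to Akita (2.31 ± 0.426), and of its neighbours only WT and WT + NACET did not overlap. Slc1a2 ran from Akita (257.9 ± 62.7 CPM) over Akita + NACET (210.0 ± 14.7) and WT (195.4 ± 14.9) to WT + NACET (192.2 ± 25.3), with overlap throughout. Glud1 varied least, from 92.9 ± 5.53 CPM in WT to 87.2 ± 6.30 CPM in Akita.

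Rod markers had the signs of Slc1a7 and Slc17a7. All 4 were positive in Akita vs WT, of which Nrl (0.55) passed, and all 4 were negative in Akita + NACET vs Akita, of which 3 passed. Their summed level ranged from 21813 to 30669 CPM in WT, from 27322 to 37752 CPM in WT + NACET, from 28901 to 42295 CPM in Akita and from 18605 to 26507 CPM in Akita + NACET, with no marker at 0 in any library. The top of the Akita range was replicate 4. Markers of inner retinal neurons had the sign of Slc38a1. In Akita vs WT all 5 bipolar, all 3 horizontal and all 5 ganglion cell markers were negative, and none of them passed. Of 5 amacrine markers listed, 3 had a symbol among the counted gene names. These 3 were negative too, and Pax6 (-0.53) and Slc6a9 (-0.66) passed. The 3 amacrine markers summed to 296 to 391 CPM in WT and 186 to 280 CPM in Akita.

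Of the other marker lists, 1 of 5 Müller glial markers passed in Akita vs WT (Aqp4, -0.54). Of 3 endothelial markers 1 passed, which was lower, and 1 was positive. None of the cone, astrocyte, pigment epithelial, lens, red cell or muscle markers passed. All 5 pigment epithelial markers were negative in Akita vs WT, with a median of -1.31. Positive in the same comparison were 4 of 5 cone, 3 of 3 astrocyte, 4 of 4 lens and 2 of 3 red cell markers. Only 1 of 5 Müller glial markers was positive, and the 1 muscle marker tested was negative. In Akita + NACET vs Akita 2 of 5 cone markers passed, both lower (Gnat2, -0.46, and Pde6h, -0.55). Another 2 of the 5 were positive. Of 3 endothelial markers 2 were positive and 1 passed (Cldn5, 2.14, at 0.126 to 2.77 CPM over the libraries). All 3 red cell markers were positive and 1 passed (Alas2, 1.43). All 5 pigment epithelial markers were positive there, with a median of 1.97, and none passed. They summed to 142 to 516 CPM in WT and 307 to 1379 CPM in WT + NACET. The sums were 55.9 to 209 CPM in Akita and 85.9 to 655 CPM in Akita + NACET. In WT + NACET vs WT all 5 were positive as well, with a median of 1.51, and none passed. The bipolar, amacrine, horizontal and ganglion cell markers were all positive in Akita + NACET vs Akita, and none passed.

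Reads outside annotated exons also differed in their share of all uniquely aligned reads, at 16.3 ± 1.24% in WT, 12.7 ± 2.74% in WT + NACET, 11.5 ± 1.83% in Akita and 16.4 ± 2.11% in Akita + NACET, the order of Slc38a1 apart from the place of the top pair. With this share as a covariate, none of the 6 genes passed in any comparison, and no gene at all was called in Akita vs WT or in Akita + NACET vs Akita. Every Akita library (9.67 to 13.3%) lay below every WT library (14.9 to 17.1%) and every Akita + NACET library (14.3 to 19.8%). In these 2 comparisons share and group can therefore not be told apart by this fit. In that fit the log2 fold change of Slc38a1 in Akita vs WT was -0.29 in place of -0.53, and that of Slc1a7 was 0.52 in place of 0.61. The part of RNA from rods, cones, inner retinal neurons and pigment epithelium in the results was not tested.

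**Figure D3:**
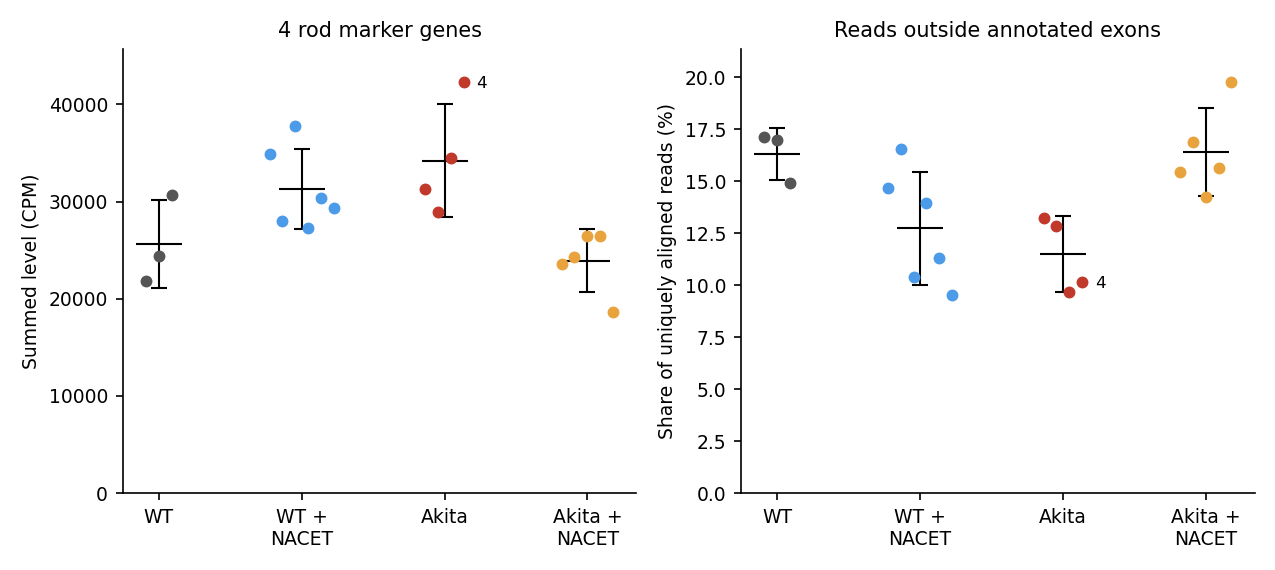
Summed level of 4 rod marker genes in CPM (left) and share of uniquely aligned reads outside annotated exons in percent (right) for each library (points), with group mean and SD (black) and Akita replicate 4 numbered. The rod sum reached 42295 CPM in that library, and the share outside exons averaged 11.5% in Akita and 16.4% in Akita + NACET.

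A wider list of 28 genes of glutamate and glutamine transport and metabolism was compared next, of which 27 passed the filter and Slc38a5 did not. In Akita vs WT 6 of the 27 passed, 3 in each direction, where 7.64% of all genes passed. This list, too, was chosen with earlier results of these data known. The aspartate/glutamate carrier of mitochondria, Slc25a12, rose by 0.56 ± 0.11 (adjusted p = 0.0155), from 117 ± 6.94 to 172 ± 28.1 CPM. Ornithine aminotransferase, Oat, which yields glutamate semialdehyde from ornithine, rose by 0.62 ± 0.14 (adjusted p = 0.0199), from 171 ± 12.7 to 263 ± 50.6 CPM. Mitochondrial aspartate aminotransferase, Got2, rose by 0.44 ± 0.12 (adjusted p = 0.0311), from 116 ± 10.9 to 157 ± 17.0 CPM.

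The genes that fell spend or make glutamate. Gad1 and Gad2, the decarboxylases that turn glutamate into GABA, fell by 0.67 and by 0.55 on the log2 scale (adjusted p = 0.0272 and 0.0360), from 245 ± 42.7 to 154 ± 27.5 CPM and from 40.7 ± 7.43 to 27.8 ± 3.66 CPM. Gls2, a glutaminase, fell by 0.85 (adjusted p = 0.0270), from 13.1 ± 1.57 to 7.26 ± 2.03 CPM, and shares 97 exonic bases with Spryd4 on the other strand. The median over the 27 genes was -0.16, beside -0.01 over all genes.

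In Akita + NACET vs Akita 4 genes of the list passed, all lower, where 9.65% of all genes passed. Slc25a12 fell by 0.55 (adjusted p = 0.0161), to 118 ± 12.9 CPM, and Oat fell by 0.50 (adjusted p = 0.0218), to 186 ± 23.1 CPM. Got2 fell by 0.41 (adjusted p = 0.0235), to 118 ± 16.4 CPM. Got1, the cytosolic aspartate aminotransferase, fell by 0.51 (adjusted p = 0.0207), from 572 ± 84.6 to 401 ± 65.6 CPM. Gad1 (0.41, adjusted p = 0.0863), Gad2 (0.33, adjusted p = 0.114) and Gls2 (0.58, adjusted p = 0.0582) had positive values that did not pass. Without Akita replicate 4, none of the list passed in this comparison and 1 of 27 passed in Akita vs WT.

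In WT + NACET vs WT and in Akita + NACET vs WT none of the list passed in edgeR, where 1.48% and 0.00618% of all genes passed. At an unadjusted p under 0.05 in edgeR were 4 and 2 of the 27, beside 3162 and 750 of all 16183 genes tested. DESeq2 fitted to the groups compared called 0 and 1 of the list. The NACET effect differed between Akita and WT for 6 of the 27 genes, where 20.3% of all genes passed: it was lower in Akita for Slc25a12 (-0.72, adjusted p = 0.00326), Oat (-0.72, adjusted p = 0.0117), Got1 (-0.53, adjusted p = 0.0390) and the glutamine carrier Slc38a3 (-0.56, adjusted p = 0.0433), and higher for Gls2 (0.97, adjusted p = 0.0200) and Gad1 (0.74, adjusted p = 0.0244). Slc38a3 lost its call in 15 of 25 alternative fits and Got1 in 12 of 25, among them the fit without Akita replicate 4 (adjusted p of 0.0873 and 0.0711), and Got1 also without WT + NACET replicate 5 (0.0533). Akita + NACET differed from WT + NACET in 3 of the 27 genes, against 13.3% of all genes, of which Slc1a6 and Slc38a2 are named after their values were seen. The neuronal uptake transporter Slc1a6 (0.52, adjusted p = 0.0470) and the glutamine carrier Slc38a2 (0.52, adjusted p = 0.0418) were higher, and glutamine synthetase, Glul, was lower (-0.45, adjusted p = 0.0333). Slc1a6 rested on only 27 to 63 reads per library, against 856 to 2762 for Slc38a2. None of the 3 passed with a replicate block or without WT + NACET replicate 5 (adjusted p of 0.0623 for Slc1a6, 0.0732 for Slc38a2 and 0.0694 for Glul), and they lost their calls in 13 of 19, 11 of 20 and 10 of 20 alternative fits.

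4 further genes of the list did not pass in Akita vs WT or in Akita + NACET vs Akita. Slc1a3 (EAAT1, or GLAST), the main glutamate transporter of Müller glia, measured 182 ± 17.1 CPM in WT, 145 ± 37.4 in Akita and 181 ± 38.9 in Akita + NACET, with adjusted p of 0.227 and 0.171. Glul, the glial enzyme that makes glutamine from glutamate, measured 963 ± 64.9, 700 ± 189 and 708 ± 53.5 CPM (adjusted p = 0.0901 and 0.955). Slc1a1 (EAAT3) measured 47.6 ± 7.95, 32.5 ± 7.40 and 52.5 ± 11.7 CPM (adjusted p = 0.165 and 0.0558), and 185 of its exonic bases are shared with other genes. Slc17a6 (VGLUT2), the vesicular transporter of ganglion cells, measured 112 ± 32.9, 78.0 ± 25.0 and 105 ± 20.2 CPM (adjusted p = 0.202 and 0.225).

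Per kilobase, Slc17a7 exceeded both other vesicular transporters, at 78.2 CPM per kb against 22.8 for Slc17a6 and 0.640 for Slc17a8. Among the uptake transporters Slc1a7 stood at 29.9 CPM per kb, Slc1a3 at 19.9, Slc1a2 at 16.1 and Slc1a1 at 8.60. Glul stood at 251 CPM per kb.

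**Figure D4:**
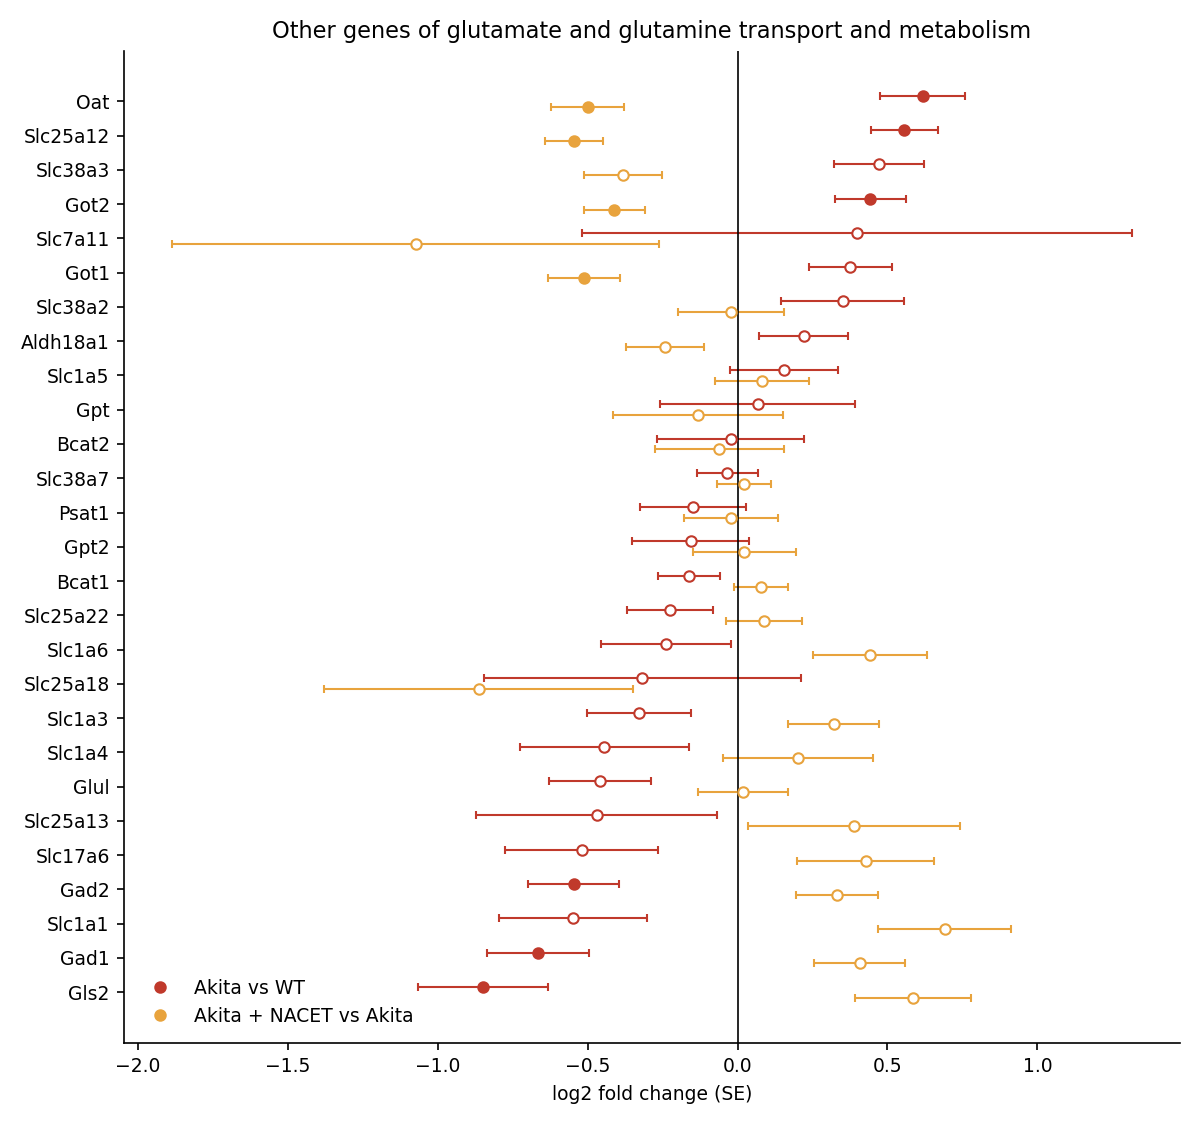
Log2 fold change (x axis) with its SE for the 27 tested genes of glutamate and glutamine transport and metabolism, in Akita vs WT (red) and in Akita + NACET vs Akita (orange), ordered by the first. Filled points passed an adjusted p of 0.05 over all genes tested, 6 in the first comparison and 4 in the second, and the comparisons share the 4 Akita libraries.

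The genes whose levels followed each of the 6 most closely were found by Pearson's r of log2 CPM over the 18 libraries among 14472 genes with a mean of at least 1 CPM. Library, depth and group are shared by all points, so r is given as a description. Slc17a7 was followed most closely by Fam3c (0.98), Tulp1 (0.97) and Cplx4 (0.97), and without Akita replicate 4 by the same genes with r from 0.94 to 0.96. Slc1a7 was followed by Epb4.1 (0.96), Zdhhc16 (0.96) and Agpat3 (0.95), with r from 0.88 to 0.92 without that library. Slc1a2 was followed by D5Ertd579e (0.96), Trip12 (0.95) and Rgs9bp (0.95), with 0.87 to 0.90 without it.

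Slc38a1 was followed by Fat3 (0.96), Nrxn3 (0.96) and 1810041L15Rik (0.95). Without Akita replicate 4 these r values were 0.95 to 0.96. Glud1 was followed by Lysmd2 (0.89), Snrpn (0.87) and Ywhab (0.87), and Slc17a8, with its few reads, by Aqp4 (0.80), Scarna13 (0.77) and Fam105a (0.76).

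**Figure D5:**
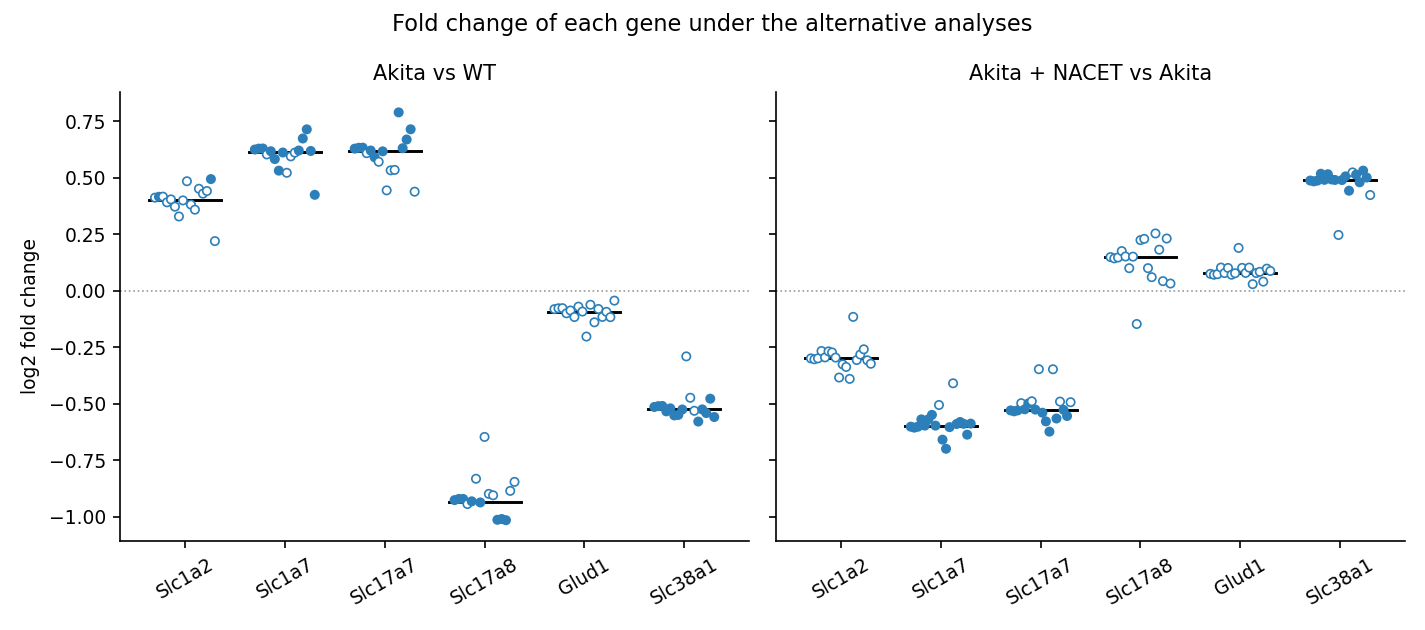
Log2 fold change (y axis) of the 6 genes in Akita vs WT (left) and in Akita + NACET vs Akita (right) under the analysis reported (black line) and each alternative (points, filled where the adjusted p was at most 0.05), including each fit without 1 library. The sign held in every fit for all genes except Slc17a8 in the right panel, whose value of 0.15 was not called and fell to -0.15 in 1 fit.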

How the data were processed

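The authors prepared poly(A) libraries (TruSeq RNA v2), ran single-end sequencing on a NextSeq 500, aligned the reads to mm9 with TopHat2 2.1.0 and counted them over exons with HTSeq 0.11.2, without strand. Each deposited file holds the raw counts of 1 library. Summary entries, an entry without a name (0.0054% of counts) and, as in the study, 185 ribosomal RNA genes (0.977%) were left out. Groups came from the sample titles. Genes were tested with edgeR 4.0.16 (R 4.3.3, quasi-likelihood F test) with TMM, the default filter (minimum count 10, total 15), all 4 groups in 1 fit and Benjamini-Hochberg adjustment over 16183 genes, at 0.05. DESeq2 1.42.0, the tool of the study, was an alternative, and the test was tried on simulated data. Genome positions and exon lengths are from GENCODE M1 on mm9. Promoter bases are from RefSeq. The 6 genes, the list of 28 pathway genes and the marker lists of retinal and adjoining cell types were chosen with earlier results of these data known. A pathway gene and a marker gene of the original lists are not reported here, and list counts leave them out. Named besides the 6 were pathway genes called in Akita vs WT, in either NACET comparison or in their difference (at most 8, by smallest p), Slc1a3, Glul, Slc17a6 and Slc1a1, and the 3 genes most correlated with each of the 6 (log2 CPM, prior count 2). Alternatives were size factors, DESeq2, 2 groups per fit, other filters, a replicate block, ribosomal genes kept, the share outside exons as a covariate and each library left out. The fit of correlated genes without Akita replicate 4 was added after the data were seen. With 3 to 6 libraries per group, genes with few reads have the larger error.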

Additional observations from a re-analysis of the deposited data

Results flagged for a closer look

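For 3 genes the NACET effect differed between Akita and WT by a test of the difference itself: Slc38a1 by 0.85, Slc1a7 by -0.76 and Slc17a7 by -0.73 on the log2 scale, edgeR adjusted p = 0.00268, 0.00757 and 0.0167. Rod markers showed a negative difference in 4 of 4 genes, all called, with a median of -0.87, and their part in these values was not tested. Within groups, 2 libraries stood outside Dixon's limit. Slc1a2 measured 241.9 CPM in WT + NACET replicate 1, where the next highest library of that group had 191.2 CPM. Slc1a7 measured 101.4 CPM in Akita + NACET replicate 4, where the next had 89.5 CPM. In all 18 groups of values were examined, and chance alone marks about 1 in 20.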

How the results depend on the processing

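None of the calls among the 6 genes changed sign under any alternative. Adding the share outside exons as a covariate left 0 of the 6 and 0 of the 27 pathway genes called in every comparison. The share did not overlap between Akita and WT or between Akita and Akita + NACET, so there this fit cannot tell share from group. In Akita vs WT (4 and 6 called), edgeR on these 2 groups alone called 1 of the 6 and 0 of the 27, and leaving out 1 library gave 0 to 4 and 0 to 7. In Akita + NACET vs Akita (3 and 4 called), both DESeq2 fits called 7 pathway genes, and leaving out 1 library gave 0 to 3 of the 6 and 0 to 6 of the 27. In Akita + NACET vs WT + NACET (1 and 3 called), edgeR on 2 groups called 0 of the 6, no filter on low counts left 1 pathway gene, and leaving out 1 library gave 0 to 1 and 0 to 2. For the difference of the NACET effects (3 and 6 called) it gave 2 to 3 and 3 to 7. DESeq2 on 2 groups called 1 pathway gene, Glul, in Akita + NACET vs WT. A count minimum of 50 left out Slc17a8, which has no value there. Most of these counts stand without the number of all genes called in the same fit. They therefore do not set the 6 or the 27 genes apart from other genes. The cause of these changes was not tested.

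With the replicate number as a replicate block, 2 of the 6 genes were called in Akita vs WT (Slc1a7 and Slc38a1) and 2 in Akita + NACET vs Akita. Of the pathway genes 3, 1, 0 and 3 were called in Akita vs WT, Akita + NACET vs Akita, Akita + NACET vs WT + NACET and the difference of the NACET effects. The number of all genes called in this fit is not given here, so these counts describe the listed genes only. The deviations of same-numbered libraries had correlations from -0.33 to 0.34 (22 pairs, median -0.00, 4 over 0.1). For 97 pairs with different numbers they ran from -0.45 to 0.45. The labels do not say what the numbers mean. With 3 to 6 libraries per group these correlations cannot tell whether same-numbered libraries were handled together.

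Depth limits Slc17a8 most, with 22 to 67 reads per library. Among correlated genes, fewer than 2 of the 3 stayed for Slc1a2 and Glud1 by rank correlation and for Slc1a7, Slc17a8 and Slc38a1 without Akita replicate 4.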
